A study of Homo sapiens with 13 samples.

Results

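Genes whose levels differed at least 2-fold between day 3 and day 2 of blood differentiation were described here in an unsorted time course of human embryonic stem cells. The comparison set 1 array of day 3 cells against 1 array of day 2 cells, out of 13 arrays in all. The cells were the RUNX1C GFP/w reporter line, derived from the established human embryonic stem cell line HES3. They were grown as spin embryoid bodies, which are aggregates formed by centrifugation, in the serum-free medium APEL. On both days the medium held BMP4, VEGF, SCF and Activin, which were replaced by BMP4, VEGF, SCF, FGF2 and IGF2 on day 4. The other 11 arrays held days 0, 1 and 4 to 8 of the same course and 4 sorted fractions of day 7 cells. The parent line had been kept on mouse feeder cells. A single reporter line was used throughout, with 1 array a day, so no SD, n or test stands beside a level, and a difference between the arrays has no replicate check. RNA was taken from all cells together, so more cells of a type and more RNA per cell cannot be told apart.

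In the embryo, epiblast cells that pass through the primitive streak lose epithelial contacts, migrate and become mesoderm or definitive endoderm. Nodal, WNT and FGF signals induce streak factors such as TBXT (brachyury), EOMES and MIXL1, and BMP4 directs streak cells toward the extraembryonic and lateral mesoderm from which blood and vessels form. HAND1 and FOXF1 mark that mesoderm, and blood and endothelial genes appear later.

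A gene was counted when its normalized log2 intensity, called its level here, differed by at least 1 between the arrays and when it was detected on the brighter one (detection p below 0.01). Where the dimmer array did not detect it, that side was raised to the array's detection floor, which was 5.44 on day 3 and 5.53 on day 2, and the fold is given as at least that size. Of 13964 genes and unnamed probes detected on day 3 or day 2, 744 (5.33%) passed, of which 435 (3.12%) were higher and 309 (2.21%) were lower on day 3. The median difference over all 13964 was -0.03. At 4-fold or more, 90 were higher and 29 lower. For 95 of the higher and 56 of the lower genes the dimmer array did not detect the gene. Nearest inside the 2-fold rule were ROBO3 (1.001) among higher and B4GALT6 (-1.0004) among lower genes, and nearest outside were LOC100129602 (0.9994) and FAM111A (-0.9998). Under the same rule the steps to days 1, 2, 4 and 5 held 3.88%, 5.34%, 6.26% and 6.83% of detected genes, and the steps to days 6, 7 and 8 held 1.88%, 0.729% and 0.781%.

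**Figure D1:**
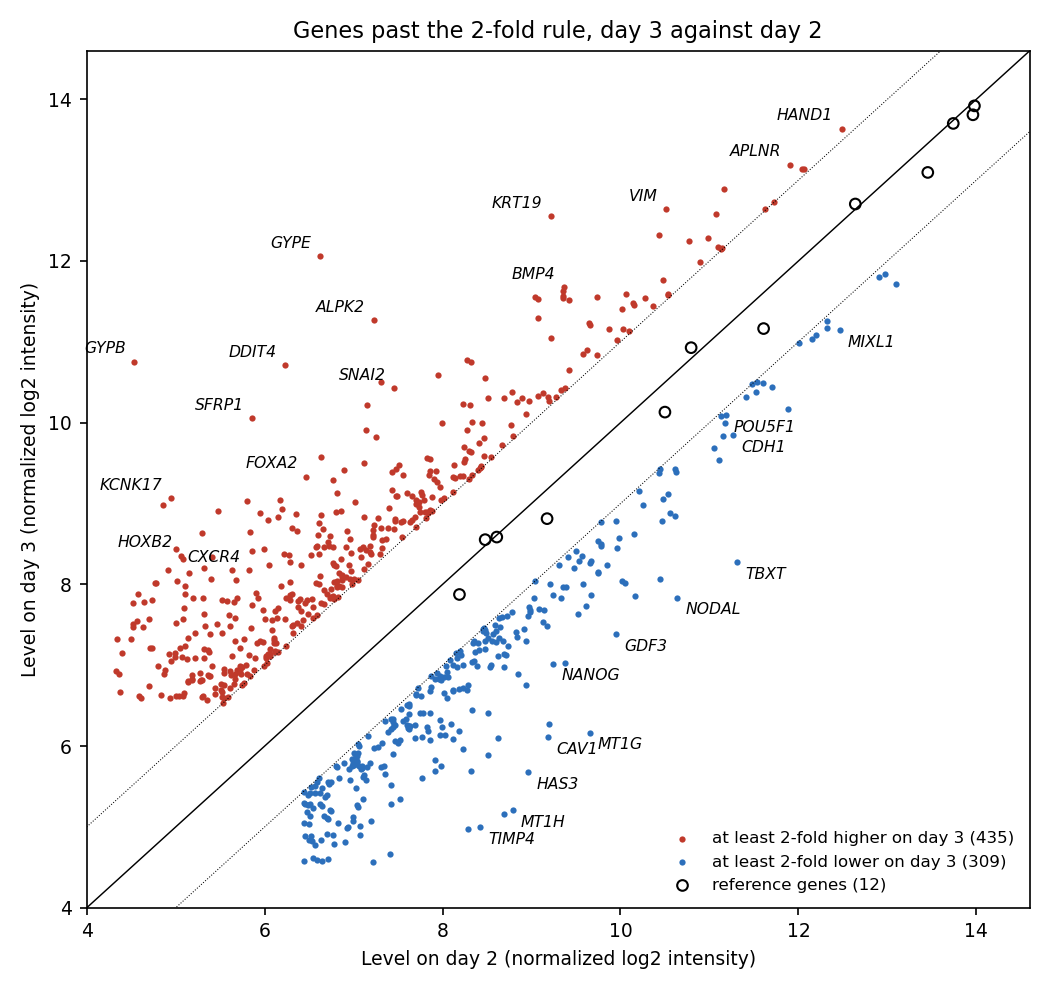
Each point is a gene past the 2-fold rule, with its normalized log2 intensity on the day 2 array along the x axis and on the day 3 array along the y axis. Red marks the 435 genes higher on day 3, blue the 309 lower on day 3, open circles the 12 reference genes, the solid line equality and the dotted lines 2-fold differences. GYPE and GYPB lie farthest above the line and MT1H, GLIPR1L1 and MT1G farthest below it, all at their levels as measured, while the 12 reference genes lie inside the dotted lines.

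The label of the step, from streak to mesoderm, was set against 3 marker genes. GYPB, a glycophorin of the red cell membrane, stood at 10.75 on day 3 and was not detected on day 2 (4.54). HAND1 was higher on day 3, at 13.64 against 12.48 on day 2, and it was already far above its levels on days 0 and 1 (4.56 and 4.71). LHX1, a homeodomain factor of the streak and of intermediate mesoderm, did not pass, with 10.30 on day 3 and 9.69 on day 2. The 4 streak markers TBXT, MIXL1, EOMES and MESP1 were detected on both days, with a log2 of their summed level of 13.39 on day 3 and 14.14 on day 2. The 4 mesoderm markers summed to 14.48 on day 3 and 13.30 on day 2. Of these KDR, the VEGF receptor of vessel and blood precursors, was detected on neither day (5.22 and 4.65).

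Other cell types were looked for through their markers. None of 3 endothelial markers (CD34, PECAM1, CDH5), 4 blood markers (TAL1, RUNX1, HBE1, PTPRC) and 2 neural markers (PAX6, SOX1) was detected on day 3 or day 2. The 3 endoderm markers SOX17, FOXA2 and CXCR4 were detected on both days and summed to 10.40 on day 3 and 8.97 on day 2. The 3 pluripotency markers summed to 10.57 on day 3 and 11.71 on day 2. Of 4 ectoderm and trophoblast markers 3 were detected, with a sum of 9.37 on day 3 and 10.00 on day 2. KRT7 was detected on neither day. TFAP2A was lower on day 3 (8.28 against 9.54), while GATA3 (6.74 against 6.01) and CDX2 (7.78 against 7.62) were higher without passing. Of 4 fibroblast or feeder markers, each read by its brightest probe, COL1A1 and THY1 were detected and COL3A1 and DCN were not. The 4 summed to 7.98 on day 3 and 9.61 on day 2. THY1 was at 7.03 on day 3 and 9.37 on day 2, while COL1A1 went the other way, at 6.21 and 5.94. Another DCN probe was detected on day 2 (5.70) and not on day 3 (4.71). The part of any of these cell types in the differences below was not tested. Of the 12 reference genes none passed, and their median difference was -0.11.

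Streak factors split into those that were lower on day 3 and those that differed little. Of 12 listed, 10 were detected, 4 were lower and FOXA2 alone was higher, with a list median of -0.43. TBXT stood at 4.66, 7.66, 11.31, 8.27, 6.96 and 4.49 on days 0 to 5, which was 8.2-fold lower on day 3 than on day 2. A further TBXT probe stood at 5.66 on day 3 and 8.59 on day 2. MIXL1, a homeodomain factor of streak and early endoderm, was 2.5-fold lower on day 3 (11.14 against 12.46). GSC, which marks the anterior streak, was at 7.44 on day 3 and 8.48 on day 2, and SP5, a direct WNT target, at 8.54 and 9.75. With an offset of 50 in the normalization, in place of 16, GSC was below 2-fold (-0.91). By contrast EOMES was at 12.35 on day 3 and 12.66 on day 2 (-0.31), and MESP1, which marks newly formed mesoderm, at 11.52 and 11.72 (-0.20). Both were lower on later days: on days 3, 4 and 5 EOMES stood at 12.35, 10.79 and 5.40, and MESP1 at 11.52, 8.93 and 6.09.

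Lateral and extraembryonic mesoderm factors were higher on day 3 or differed by less than 2-fold. Of 22 listed, 16 were detected, 6 were higher and 0 lower, with a list median of 0.67. BMP4, the ligand that was also supplied in the medium, had the largest difference of them, with 11.67 on day 3 and 9.36 on day 2 (4.97-fold). APLNR, the apelin receptor of early mesoderm, was at 13.19 on day 3 and 11.90 on day 2, above 4.68 and 4.73 on days 0 and 1. FOXF1, a forkhead factor of splanchnic mesoderm, was at 7.57 against 6.23, GATA4, a zinc finger factor of heart and endoderm, at 7.40 against 6.32, and SMARCD3, a chromatin remodelling subunit of heart progenitors, at 6.95 against 5.88. HAND1 was highest on day 8 (13.83), and its day 3 level was close to that of every later day, 13.63 to 13.83. The reference gene ACTB stood at 13.70 on day 3, and saturation of the arrays at such levels was not tested. PDGFRA, a receptor of mesoderm, did not pass (9.54 on day 3 and 8.87 on day 2). HLX, a homeobox factor outside the list, was 9.41-fold higher on day 3 (9.03 against 5.80) and had its highest level of the course that day. Of 6 detected paraxial and intermediate mesoderm factors none passed, and TBX6 was at 5.71 on day 3 and 6.26 on day 2.

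**Figure D2:**
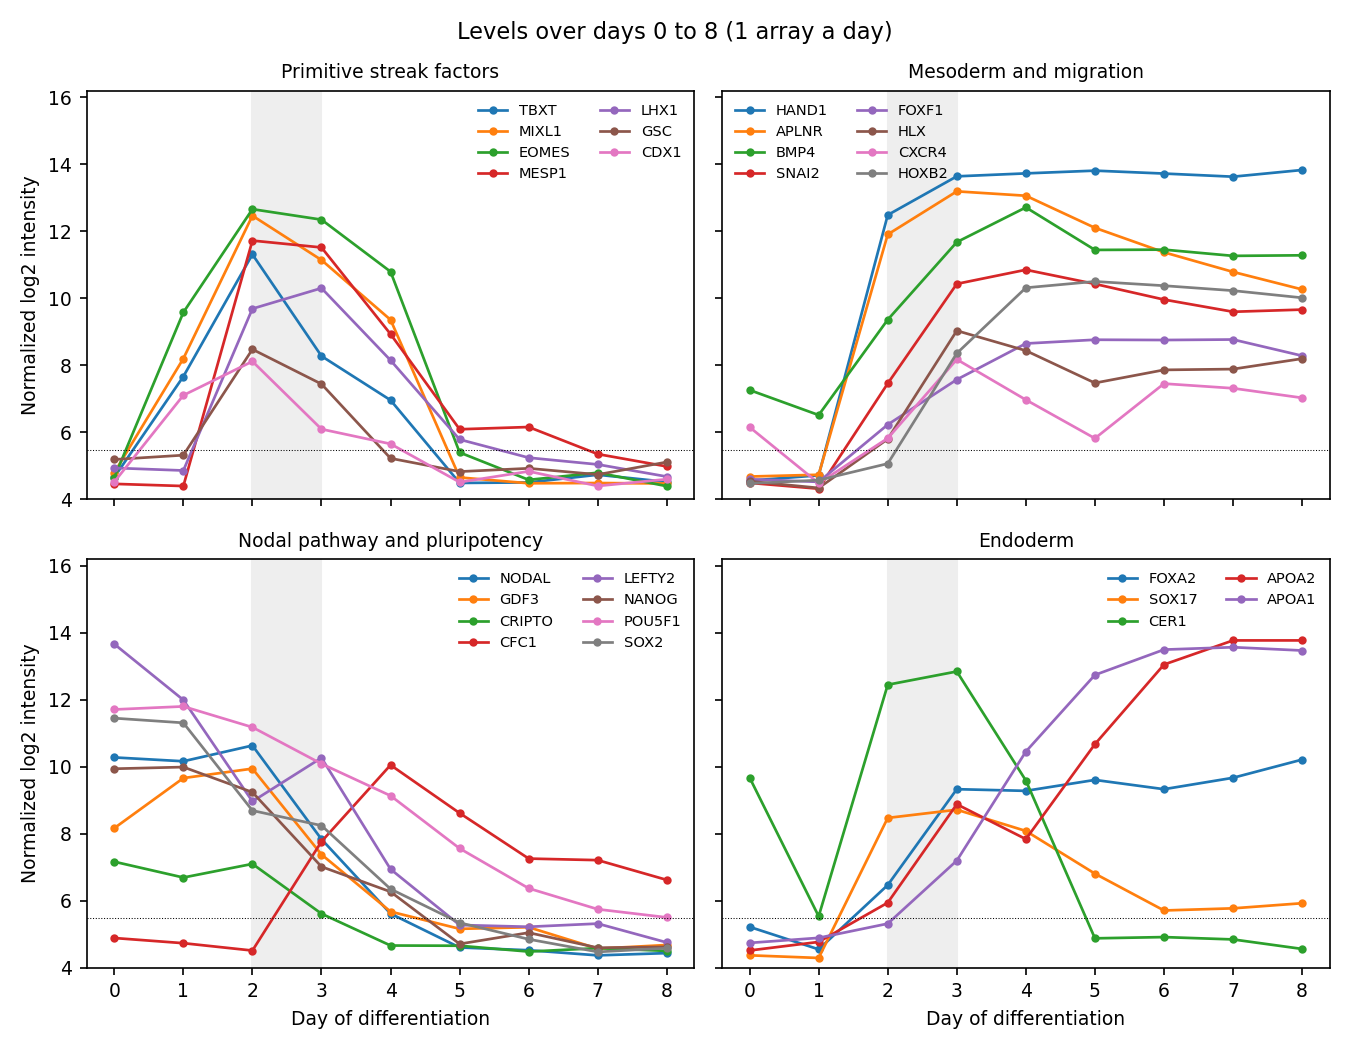
Normalized log2 intensity on the y axis against day of differentiation on the x axis, with 1 array a day, for streak factors, mesoderm and migration genes, Nodal pathway and pluripotency genes, and endoderm genes. The grey band marks days 2 to 3 and the dotted line the mean of the 2 arrays' detection floors. TBXT, NODAL, GDF3 and NANOG go down inside the band, SNAI2, BMP4, HLX and FOXA2 go up, and EOMES and MESP1 are nearly level in it.

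Glycophorin transcripts had the largest differences of the step. GYPE, a glycophorin family gene, was 43.3-fold higher on day 3 (12.06 against 6.62), and GYPB at least 37.3-fold (10.75, against 4.54 and below detection). On days 0 to 8 GYPE stood at 4.57, 4.89, 6.62, 12.06, 12.44, 10.21, 10.21, 10.28 and 10.45. GYPB stood at 4.43, 4.41, 4.54, 10.75, 11.29, 8.75, 9.31, 9.24 and 9.40 on the same days. Both genes were undetected on days 0 and 1, highest on day 4 and lower from day 5 on. GYPC, which comes from an unrelated gene and is expressed outside red cells, was at 10.32 on day 3 and 9.18 on day 2. EPOR, the erythropoietin receptor, was at 7.21 on day 3 and 6.06 on day 2 and was below 2-fold with an offset of 50 (0.85). No listed globin gene passed, HBA2 among them (6.0 on day 3 and 5.82 on day 2), and ALAS2, which catalyses the initial step of haem synthesis in erythroid cells, was at 6.06 on day 3 and below detection on day 2 (5.23). Of 15 listed red cell and glycophorin genes, 8 were detected, 4 were higher and 0 lower, with a median of 0.83.

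The 2 genes lie next to each other on chromosome 4 and arose by duplication, and their promoters are shown because both transcripts passed in the step and because short probes may not separate them. In the RefSeq windows on GRCh38.p14, which run from 250 bases before to 50 after the gene start, 287 of 294 aligned bases (97.6%) were identical and 7 differed. The stretches below are read on the minus strand, at chr4:144019346-144019465 for GYPB and chr4:143905560-143905679 for GYPE, and capitals mark AGATAA, a core bound by GATA factors, searched on both strands.
GYPB: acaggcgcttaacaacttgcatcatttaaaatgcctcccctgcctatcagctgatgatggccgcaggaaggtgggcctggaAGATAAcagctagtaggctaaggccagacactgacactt
GYPE: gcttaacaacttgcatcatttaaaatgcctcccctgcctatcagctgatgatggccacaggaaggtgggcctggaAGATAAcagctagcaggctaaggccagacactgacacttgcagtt
Counted from the listed gene start, the match began at position -39 in GYPB and -45 in GYPE. AGATAA stood in 13.2% of 303 windows of higher genes, 9.9% of 202 windows of lower genes, 7.73% of windows of detected genes and 12.4% of 27305 windows in all. The longer AGATAAG, which contains it, stood in 4.95%, 2.48%, 2.09% and 3.27% of them in the same order. A match is a run of letters and says nothing of binding. The other 3 GYPE probes were also higher on day 3, at 10.62, 8.29 and 8.27 against 4.98, 4.54 and 4.82 on day 2. Cross-hybridisation between members of the family was not tested, so the share of each gene in these signals is uncertain.

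Genes of epithelial contacts were lower on day 3 and mesenchymal genes higher, though many members of the list did not pass. Of 27 listed cadherin, epithelial and EMT genes, 21 were detected, 3 were higher and 4 lower, with a list median of -0.37. SNAI2, a repressor of epithelial genes, was at 4.49, 4.32, 7.46, 10.43 and 10.85 on days 0 to 4 and 7.85-fold higher on day 3 than on day 2. CDH11, a cadherin of mesenchyme, was at 10.75 on day 3 and 8.32 on day 2, and VIM, the intermediate filament of mesenchyme, at 12.64 and 10.51. VIM had been higher still on day 0 (12.70). CDH1, the epithelial cadherin, was 2.67-fold lower on day 3 (9.85 against 11.26). The tight junction genes CLDN7 (7.83 against 9.33) and CLDN10 (8.34 against 9.41) and the epithelial adhesion gene EPCAM (11.08 against 12.20) were also lower on day 3. CLDN10 was just short of 2-fold with an offset of 50, and EPCAM was below it with the mean of its probes (-0.93). CDH2, the cadherin that replaces CDH1 in many mesenchymal cells, was at 12.17 on day 3 and 11.55 on day 2, which did not pass. KRT19, a keratin of simple epithelia and mesothelium, was higher, at 12.56 on day 3 and 9.22 on day 2 (10.1-fold), and KRT8 was at 10.40 and 9.33.

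Most of the matrix genes that passed were higher on day 3. Of 29 hyaluronan and matrix genes, 23 were detected, 10 were higher and 2 lower, with a median of 0.33. Hyaluronan synthases differed in direction: HAS3 was 9.77-fold lower on day 3 (5.68 against 8.96), and HAS2 was at 11.02 on day 3 and 9.96 on day 2. HAPLN1, which links hyaluronan to proteoglycans, was at 11.56 on day 3 and 9.36 on day 2, while CD44, the main hyaluronan receptor, was at 5.69 and 7.92. STAB2, a clearance receptor for hyaluronan, was detected on day 3 (7.24), not on day 2 (5.10) and again not on day 4 (5.28). The collagen genes COL4A1 (11.15 against 9.87), COL5A1 (11.76 against 10.48) and COL5A2 (12.28 against 10.98), the laminin chain LAMA1 (8.94 against 7.40), the microfibril gene FBN2 (11.55 against 10.28) and TNC (7.78 against 6.63) were higher on day 3. LUM, a small proteoglycan, was at 6.98 on day 3 and below detection on day 2 (4.81), and stood at 12.05 on day 4, with a difference just under 2-fold at an offset of 50.

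Receptors that steer migrating cells were among the higher genes. Of 28 guidance and migration genes, 23 were detected, 5 were higher and 1 lower, with a median of 0.01. CXCR4, the receptor of the chemokine CXCL12, was 5.11-fold higher on day 3 (8.17 against 5.82), and ACKR3, which takes up the same chemokine, was at 10.31 against 8.51. CXCL12 itself was at 7.19 on day 3 and 7.85 on day 2. Of the ephrin receptors, EPHB2 was higher on day 3 (7.83 against 6.24) and EPHA1 lower (7.87 against 9.67). The semaphorin receptor PLXNA2 (8.82 against 7.27) and the netrin NTN4 (7.09 against 5.31, below detection on day 2) were higher.

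Nodal pathway members stood on both sides of the step, with NODAL, GDF3 and CRIPTO lower and CFC1, LEFTY2 and FST higher on day 3. Of 18 listed, 16 were detected, 3 were higher and 3 lower, with a median of 0.09. NODAL stood at 10.28, 10.16, 10.63, 7.84, 5.62 and 4.61 on days 0 to 5, 6.95-fold lower on day 3 than on day 2. GDF3, a related ligand, was 5.91-fold lower (7.38 against 9.95), and CRIPTO, the coreceptor of NODAL, 2.8-fold lower (5.62 against 7.10). CFC1, the other coreceptor of the family, went the opposite way, with 7.77 on day 3 and a level below detection on day 2 (4.52), and reached 10.05 on day 4. LEFTY2, a secreted Nodal inhibitor and target, was at 10.27 on day 3 and 8.97 on day 2, between 13.66 on day 0 and 6.94 on day 4. LEFTY1 was at 8.66 on day 3 and 9.55 on day 2, which did not pass. FST, which binds activin, was at 10.85 on day 3 and 9.58 on day 2, and CER1, an inhibitor of Nodal, BMP and WNT, was at 12.84 and 12.45.

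The BMP pathway genes that passed were BMP4, BMP5, FST and BMPER, which were higher on day 3, and ID1, which was lower. Of 26 listed, 21 were detected, 4 were higher and 1 lower, with a median of -0.07. Besides BMP4 and FST, the ligand BMP5 (7.05 on day 3, below detection at 4.95 on day 2) and the BMP-binding protein BMPER (9.41 against 7.92) were higher, while the ligands BMP2 (10.66 against 9.84) and BMP7 (7.77 against 8.37) did not pass. ID1, a direct BMP target, was 2.15-fold lower on day 3 (10.31 against 11.41), and with the mean of its probes it was below 2-fold (-0.79). The receptors detected, among them BMPR1A (8.75 against 9.48) and BMPR2 (7.55 against 7.62), did not pass.

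In the WNT pathway receptors and secreted antagonists stood on both sides of the step. Of 37 listed, 31 were detected, 6 were higher and 6 lower, with a median of 0.14. SFRP1, a secreted antagonist, was 18.3-fold higher on day 3 (10.05 against 5.86), and SFRP2 was 5.19-fold lower (8.07 against 10.45). FRZB, a further antagonist of the same family, was at 7.48 on day 3 and below detection on day 2 (5.33), and DKK4, an inhibitor of another family, was at 6.13 on day 3 and 7.97 on day 2. Of the frizzled receptors, FZD2 (9.29 against 6.77) and FZD8 (8.14 against 6.84) were higher and FZD5 was lower (not detected on day 3 at 5.26, against 6.65 on day 2). LGR5, a receptor of R-spondins (7.34, against 5.14 and below detection), and ROR1, a receptor of WNT5A (8.12 against 6.87), were higher, while the ligand WNT5B (6.11 against 7.77) and the feedback inhibitor NKD1 (6.98 against 8.16) were lower. WNT3 (9.82 against 9.72) and WNT3A (7.54 against 7.68), ligands of the streak, did not pass, and WNT3A was at 4.57 on day 4.

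FGF genes that passed were all lower on day 3. Of 29 listed, 22 were detected, 0 were higher and 3 lower, with a median of -0.21. FGF2 was at 6.41 on day 3 and 7.86 on day 2, FGF8, a ligand of the streak, at 7.30 and 8.35, and ETV4, a factor induced by FGF signals, at 6.75 and 8.28. With an offset of 50 FGF8 was below 2-fold (-0.91). The feedback inhibitors SPRY2 (9.46 against 9.65) and SPRY4 (9.58 against 9.98) did not pass.

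The Notch ligands DLL1 and JAG1 were higher on day 3. Of 20 Notch pathway genes, 16 were detected, 4 were higher and 1 lower, with a median of 0.15. DLL1 was 5.2-fold higher on day 3 (8.05 against 5.68) and JAG1 2.47-fold (7.13 against 5.83), and LFNG, which modifies Notch receptors with sugars, was at 7.48 and 6.30. HES4, a repressor of the HES family, was at 7.48 on day 3 and 5.61 on day 2, and HEY1, a Notch target, was lower (6.07 against 7.52). With an offset of 50 JAG1 (0.94) and LFNG (0.91) were below 2-fold. NOTCH1 (8.97 against 8.45) did not pass.

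The ligands PDGFA and KITLG were lower on day 3. Of 19 VEGF, PDGF and apelin genes, 13 were detected, 1 was higher (APLNR) and 2 were lower, with a median of 0.67. PDGFA, the ligand of PDGFRA, was 4.78-fold lower on day 3 (5.97 against 8.23), and KITLG, which encodes SCF, also a supplement of the medium, was 3.15-fold lower (6.18 against 7.84). A further KITLG probe differed by less than 2-fold (5.94 against 6.78). VEGFA was detected on day 3 (6.53) and not on day 2, and its bound of 1.99-fold did not pass. Of 22 endothelial and blood progenitor genes, 8 were detected, MYB alone passed and none was lower. MYB, a factor of blood progenitors that other cycling cells also express, was at 8.47 on day 3 and 7.19 on day 2. LYL1 (7.27 against 7.60) did not pass, and LMO2 was not detected on day 3 (4.65) but was on day 2 (5.73). KDR was at 7.59 and CD34 at 6.54 on day 4, after neither had been detected on days 2 and 3.

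Several HOXB genes were higher on day 3, CDX1 was lower, and most other HOX genes did not pass. Of 32 HOX and CDX genes and cofactors, 19 were detected, 5 were higher and 1 lower, with a median of 0.16. HOXB2 stood at 4.47, 4.57, 5.06, 8.36 and 10.31 on days 0 to 4, at least 7.07-fold higher on day 3 than on day 2. HOXB5 (8.36 against 6.27), HOXB6 (7.14 against 6.06) and HOXB8 (7.21 against 5.05, below detection) were also higher, and on day 4 they stood at 11.33, 9.33 and 10.28. MEIS2, a cofactor of HOX proteins, was at 6.62 on day 3 and below detection on day 2 (4.59), and with an offset of 50 it was below 2-fold (0.72). CDX1, a caudal factor that WNT and retinoic acid induce, was 4.06-fold lower (6.09 against 8.12), and CDX2 did not pass (7.78 against 7.62). Of 17 retinoic acid genes, 12 were detected and 2 were higher. These were CRABP2, which carries retinoic acid to its receptor (11.56 against 9.73), and CYP26A1, which degrades it. CYP26A1 lay at the threshold (12.73 against 11.72) and was below 2-fold when the 2 arrays were normalized alone (0.98). The further CYP26A1 probes differed by more than 2-fold (9.94 against 8.54 and 9.90 against 8.64).

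Some pluripotency genes were lower on day 3, in unequal measure. Of 20 listed, 18 were detected, 8 were lower and 1 higher, with a median of -0.83. NANOG was 4.67-fold lower on day 3 (7.02 against 9.24) and POU5F1 2.13-fold lower (10.09 against 11.18), and SOX2 did not pass (8.25 against 8.69), having stood at 11.45 and 11.31 on days 0 and 1. TERF1, a telomere protein (9.53 against 11.11), DPPA2 (5.82 against 7.04), the ubiquitin protease USP44 (6.27 against 7.47) and the DNA methyltransferase DNMT3B (10.50 against 11.53) were lower as well. DNMT3L, a cofactor of that enzyme, was the higher one (6.76 against 5.55), though below 2-fold with an offset of 50 (0.81). LIN28A (12.26 against 12.72) and SALL4 (10.38 against 10.30) did not pass.

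Part of the endoderm genes was also higher on day 3. Of 20 definitive endoderm genes, 15 were detected, 5 were higher and 1 lower, with a median of 0.40. FOXA2, a factor of anterior streak and endoderm, was 7.26-fold higher on day 3 (9.33 against 6.47) and stood between 9.28 and 10.21 from day 4 to day 8. The apolipoprotein genes APOA2 (8.88 against 5.94) and APOA1 (7.20, against 5.32 and below detection) were higher, and both reached 13.77 and 13.57 on day 7. SOX17 was at 8.72 on day 3 and 8.47 on day 2, which did not pass, and GSC and FOXA3 were at 7.44 and 9.19 on day 3, against 8.48 and 9.35 on day 2. Of 17 surface ectoderm and trophoblast genes, 9 were detected, 3 were higher (KRT19, HAND1 and KRT8) and 1 was lower. The lower one was TFAP2A, a factor of surface ectoderm, trophoblast and neural crest (8.28 against 9.54). Of 16 neural genes, 9 were detected, with NCAM1 (9.05 against 6.17) and FABP7 (8.66 against 6.37) higher and ZIC2 (11.17 against 12.32) and SFRP2 lower. NCAM1, a cell adhesion molecule, is also known from early mesoderm.

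Some genes known to be induced by low oxygen were higher on day 3, and DDIT4, an inhibitor of the growth kinase mTORC1, had the third largest difference of the step. DDIT4 stood at 7.59, 6.52, 6.23 and 10.71 on days 0 to 3, 22.3-fold higher on day 3 than on day 2. Of 20 glycolysis and hypoxia genes, 18 were detected, 7 were higher and 0 lower, with a median of 0.68. The hypoxia-induced genes BNIP3, a mitophagy receptor (12.25 against 10.77), ADM, which encodes adrenomedullin (9.70 against 8.24), NDRG1 (7.82 against 6.39) and P4HA1, a collagen prolyl hydroxylase (9.84 against 8.79), were higher. So were the glycolytic enzymes ALDOC (11.21 against 9.66), ENO2 (7.77 against 6.46) and HK2 (9.31 against 8.14). PFKFB4, which sets the level of a glycolytic activator and was picked after its value was seen, was at 10.59 on day 3 and 7.95 on day 2. The glucose carriers SLC2A1 (11.06 against 10.41) and SLC2A3 (13.34 against 13.43) did not pass, and neither did GAPDH (13.10 against 13.45) or LDHA (13.53 against 13.00). Oxygen in the culture is not given in the labels, and a part of it in these differences was not tested.

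The promoter stretches of DDIT4 and BNIP3 are shown because both genes are known targets of hypoxia-inducible factors. ACGTG is a form of the core bound by these factors. DDIT4 lies on the plus strand at chr10:72273774-72273923 and BNIP3 on the minus strand at chr10:131981924-131982103 of GRCh38.p14, and capitals mark ACGTG on either strand.
DDIT4: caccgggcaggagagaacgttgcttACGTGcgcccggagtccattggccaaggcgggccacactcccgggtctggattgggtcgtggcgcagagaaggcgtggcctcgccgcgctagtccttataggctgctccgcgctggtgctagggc
BNIP3: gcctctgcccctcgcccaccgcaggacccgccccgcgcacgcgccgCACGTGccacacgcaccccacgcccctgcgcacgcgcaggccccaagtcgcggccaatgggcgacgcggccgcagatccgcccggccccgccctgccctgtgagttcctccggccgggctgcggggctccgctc
In BNIP3 the 2 matches overlap, since CACGTG reads the same on both strands, and in DDIT4 the match began at position -125 from the start. Stretches of 250 bases of ADM and PFKFB4, also higher on day 3, held 0 matches, and that of ALDOC held 3. Other forms of the core were not searched, so 0 matches does not mean that a stretch lacks the core. Of the 6 higher genes of the hypoxia list with a window, 5 held ACGTG, as did 12 of 17 of that list. The share was also high in the HOX and CDX list, with 11 of 17 windows, and 2 of 4 metallothionein windows held it. It stood in 30% of windows of higher genes, 32.7% of lower genes, 33.1% of detected genes and 24.9% of all. The motif was chosen after the values were seen, and the search says nothing of whether a factor binds.

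Metallothioneins, which bind zinc and copper and are induced by these metals, held the largest differences among lower genes. This list was drawn up after their values were seen. Of 10 listed, 7 were detected and 6 were lower, with a median of -1.88. MT1G stood at 11.82, 11.02, 9.65, 6.17 and 5.92 on days 0 to 4, 11.2-fold lower on day 3 than on day 2. MT1H stood at 11.63, 10.45, 8.79, 5.21 and 4.79, at least 10.2-fold lower. MT1E (6.18 against 8.18), MT1F (7.73 against 9.61), MT1A (8.78 against 9.95) and MT2A (6.34 against 7.59) were lower too, and MT1X did not pass (10.14 against 10.86). MT1G, MT1H and MT1E were lower on each of days 1, 2 and 3 than the day before, and MT1E and MT2A were higher again on day 8 (8.48 and 8.56). MT1 genes are close copies, so their probes may share signal.

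The 6 lower metallothionein genes follow each other on chromosome 16, in the order MT2A, MT1E, MT1A, MT1F, MT1G and MT1H among detected protein-coding genes. A stretch of the MT1H promoter, on the plus strand at chr16:56669564-56669813 of GRCh38.p14, is shown because the family is known for metal response elements. Capitals mark TGCACNC and TGCGCNC on either strand.
MT1H: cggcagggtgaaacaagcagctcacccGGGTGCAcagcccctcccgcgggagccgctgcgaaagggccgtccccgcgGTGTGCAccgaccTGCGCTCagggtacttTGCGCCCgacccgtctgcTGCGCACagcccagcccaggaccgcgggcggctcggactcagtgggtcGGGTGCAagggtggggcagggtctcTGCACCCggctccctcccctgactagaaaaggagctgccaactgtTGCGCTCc
It held 8 matches. Of the 4 metallothionein genes with a RefSeq window, 4 held TGCACNC and 3 held TGCGCNC, against 14.4% and 23% of all windows and 15.1% and 37.8% of windows of detected genes. Both motifs were chosen after the values were seen, and a match to either says nothing of binding or function.

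**Figure D3:**
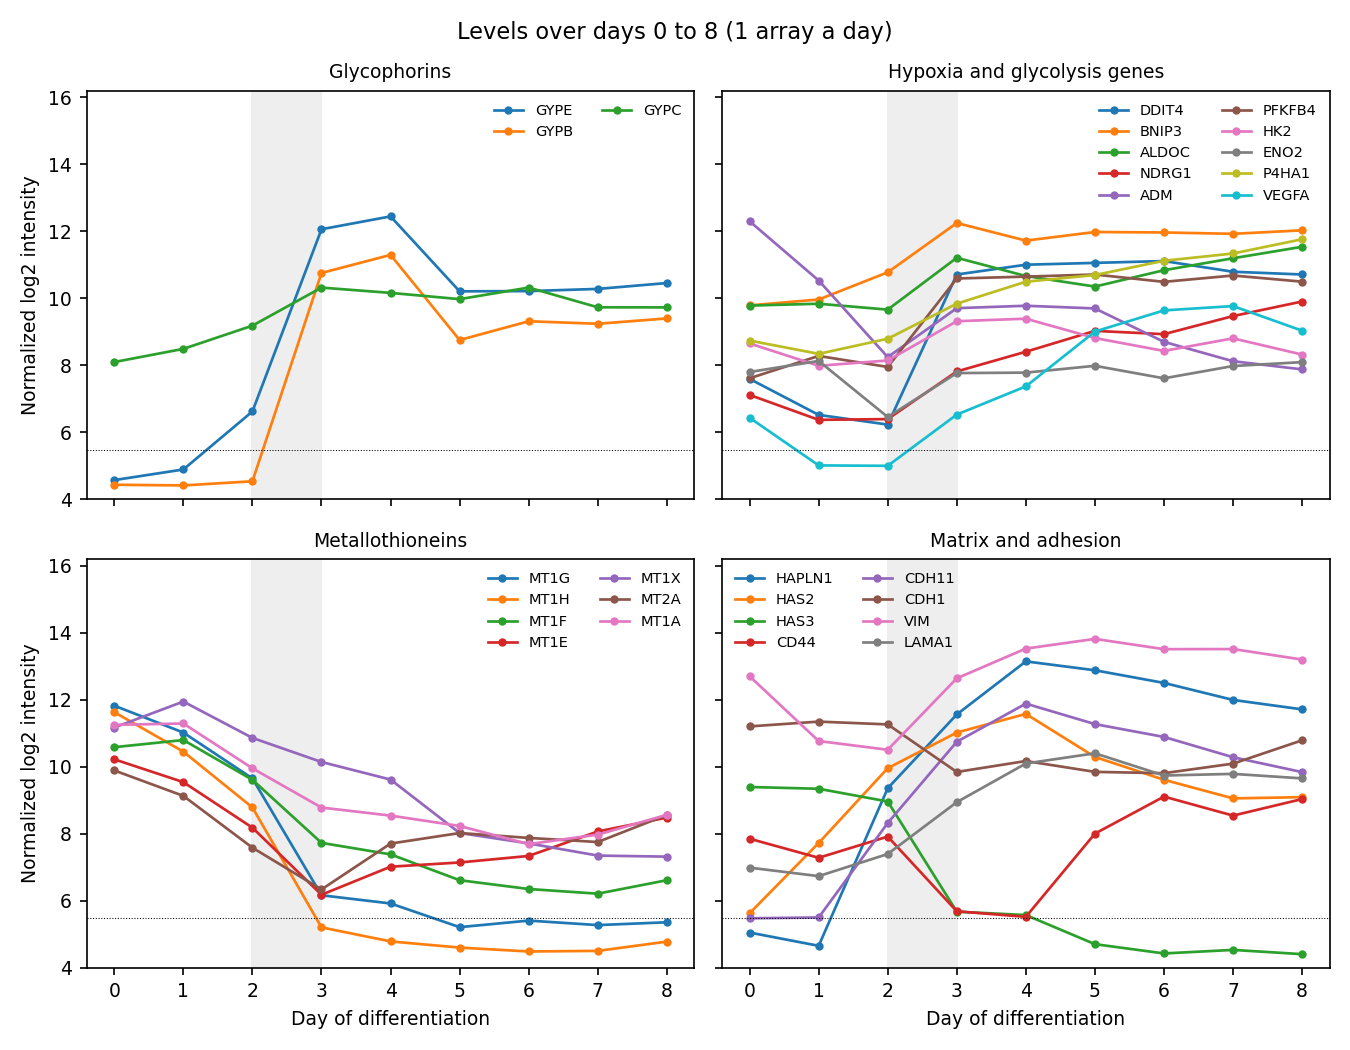
Normalized log2 intensity on the y axis against day of differentiation on the x axis, with 1 array a day, for glycophorins, hypoxia and glycolysis genes, metallothioneins, and matrix and adhesion genes. The grey band marks days 2 to 3 and the dotted line the mean of the 2 arrays' detection floors. GYPE and GYPB climb inside the band and peak on day 4, DDIT4 climbs in it and stands between 10.71 and 11.11 from day 3 on, and the metallothioneins go down from day 0 or 1 through day 3.

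Several genes with large differences belong to no list above. ALPK2, an alpha-kinase, was 16.5-fold higher on day 3 (11.27 against 7.22) and was not detected on days 0 and 1 (4.51 and 4.41). KCNK17, a potassium channel subunit, was at least 11.6-fold higher (9.07 against 4.94) and stood at 6.27 on day 4. STMN2, a microtubule regulator of neurons, was at least 10.4-fold higher (8.91 against 5.48), and FEZ1, an adaptor of axonal transport, 9.15-fold (10.51 against 7.31). A further FEZ1 probe differed by less than 2-fold (7.23 against 6.48). The remaining FEZ1 probes stood at 8.23 and 7.21 on day 3 and were below detection on day 2 (5.03 and 5.41). SERHL, a hydrolase-like gene, was at least 8.6-fold higher (8.64 against 5.29), and TMOD1, which caps actin filaments, 8.39-fold (10.22 against 7.15). MYL4, a myosin light chain of embryonic muscle and atrium, was at least 10.9-fold higher (8.98 against 4.86), and MYL7, that of the atrium, at least 5.61-fold (8.02 against 4.78). Both myosin genes went on to 11.43 and 10.97 on day 4. Of 15 muscle actin and contractile genes, 9 were detected, these 2 were higher, and TAGLN, an actin-binding protein of smooth muscle, was lower (8.01 against 9.58).

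Among lower genes outside the lists, CAV1, the main protein of caveolae, was 8.42-fold lower on day 3 (6.11 against 9.19). A further CAV1 probe differed by less than 2-fold (6.10 against 6.52), and the neighbouring gene CAV2 was also lower (-1.67). GLIPR1L1 (5.16 against 8.69), TIMP4, an inhibitor of matrix proteases (at least 7.89-fold lower, with 8.42 on day 2), and RGS16, which switches off G protein signals (4.98 against 8.29), were below detection on day 3. Of these, RGS16 was also low on day 1 (5.09), so that it was high on day 2 alone of days 1 to 4. SERTAD4 (5.88 against 8.51), the noncoding RNA MIAT (5.70 against 8.32) and the tubulin TUBA4A (6.10 against 8.62) were between 5.74-fold and 6.18-fold lower. THY1, which stem cells and fibroblasts both express, was 5.07-fold lower (7.03 against 9.37). On the list of 10 fibroblast and feeder-like genes, 6 were detected, with LUM and S100A4 (8.37 against 7.30) higher and THY1 lower.

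The cell cycle genes that passed were CDKN1C and CCND2. Of 23 listed, 21 were detected, 1 was higher and 1 lower, with a median of -0.07. CDKN1C, an inhibitor of cyclin-dependent kinases, was at 7.21 on day 3 and 5.72 on day 2, and CCND2, a D-type cyclin, at 10.38 and 11.53. TOP2A (11.13 against 10.94) and CCNA2 (10.97 against 11.25) did not pass. Of 19 immediate-early genes, 15 were detected, 0 were higher and 2 lower, with a median of -0.28. FOS was below detection on day 3 (5.13, against 6.66 on day 2) and IER3 was at 10.98 against 12.01, while JUN was at 6.87 and 6.98. With an offset of 50 FOS was below 2-fold (-0.81).

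**Figure D4:**
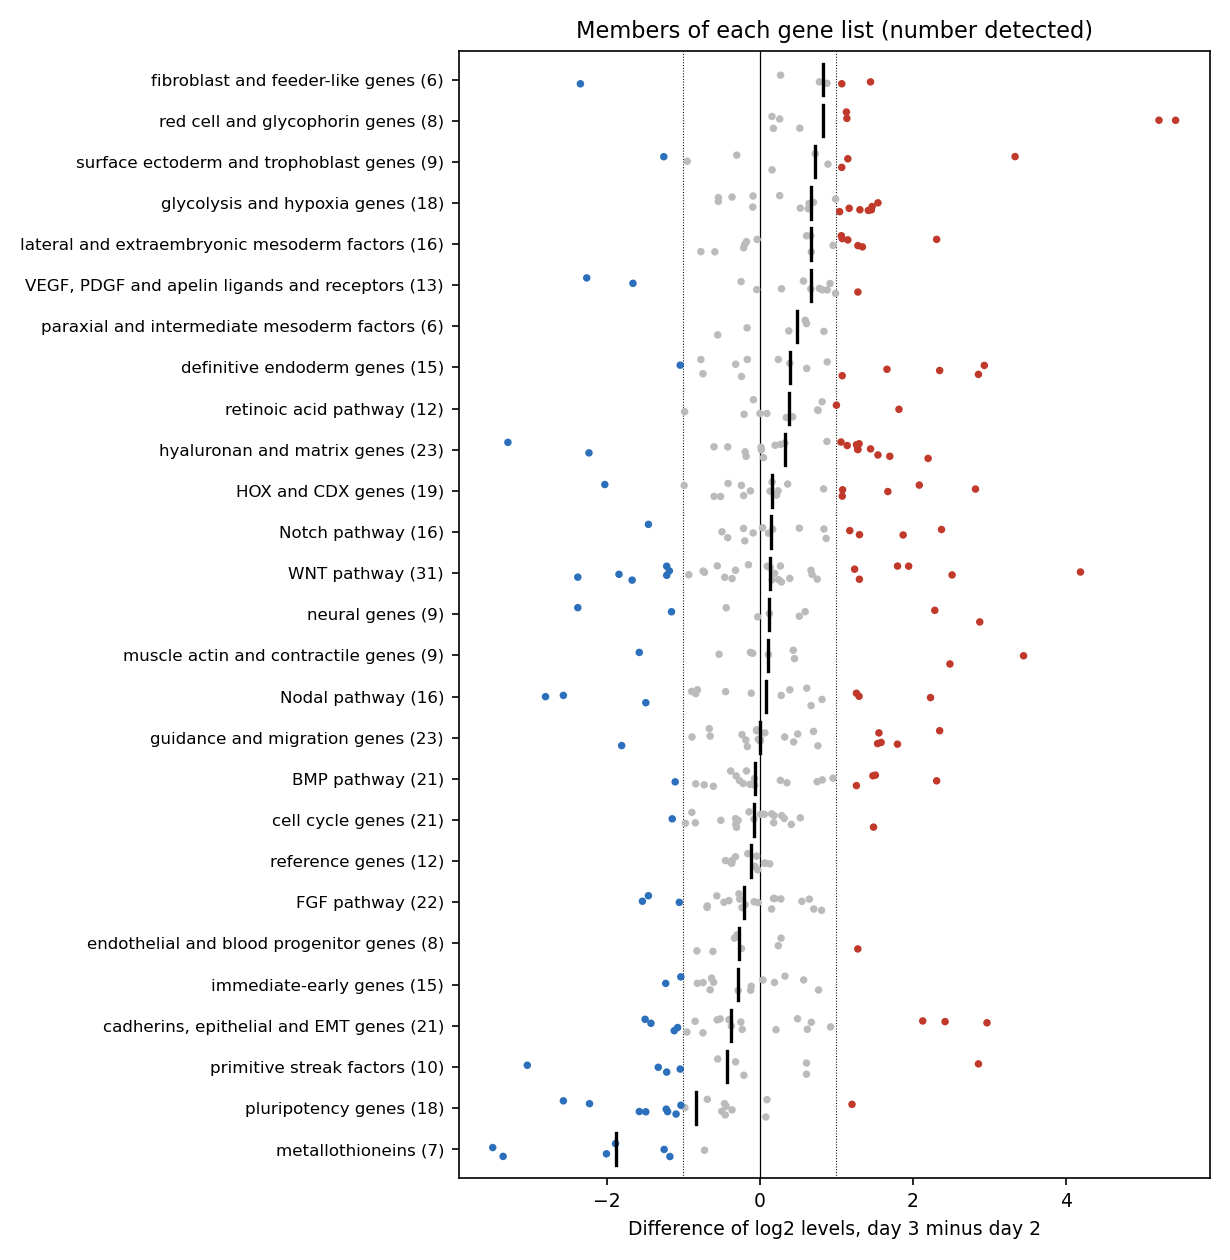
Each point is a detected member of a gene list, placed by its difference of log2 levels, day 3 minus day 2, on the x axis, with red for members at least 2-fold higher and blue for members at least 2-fold lower on day 3. Lists run down the y axis by their median (black bar), with the number of detected members in brackets. The medians run from 0.83 for fibroblast and feeder-like genes and for red cell and glycophorin genes to -1.88 for metallothioneins.

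The 435 higher genes had different courses after day 3. Of them 121 had their highest level of the 9 days on day 3, 105 on day 4, and 50, 39, 51 and 53 on days 5, 6, 7 and 8. The rule asks for a higher level on day 3 than on day 2, so it excludes a peak on day 2. The share of all detected genes with such courses was not worked out. On day 4, 333 were at least 2-fold above their day 2 level, and on day 8 it was 250. These counts and those that follow use levels as measured, with no detection rule and no raising to the floor. From day 3 to day 4, 87 were a further 2-fold higher and 51 were at least 2-fold lower. Already 87 of them had been at least 2-fold higher on day 2 than on day 1, as HAND1, APLNR and SNAI2 were, and 32 had been at least 2-fold lower, as ADM was. WNT4, GABBR2 and SLPI, picked after their values were seen, were among those that were soon lower again. WNT4, a signalling ligand, was at 4.58, 7.89, 6.48 and 4.76 on days 2 to 5, and SLPI, a protease inhibitor, at 6.64, 9.57, 9.01 and 5.91.

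Of the 309 lower genes, 87, 86 and 109 had their highest level on days 0, 1 and 2. The rule asks for a higher level on day 2 than on day 3, so it favours a peak on day 2 and excludes one on day 3. For these courses too the share of all detected genes was not worked out. On day 4, 259 were at least 2-fold below their day 2 level, and on day 8 it was 216, again in levels as measured. From day 3 to day 4, 41 were a further 2-fold lower and 14 were at least 2-fold higher. Before the step, 53 had been at least 2-fold lower on day 2 than on day 1, as MT1G and MT1H were, and 44 had been at least 2-fold higher, as TBXT, MIXL1 and GSC were. CD44 was low on days 3 and 4 (5.69 and 5.52) and at 8.01 on day 5.

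On the arrays of day 7 cells sorted on CD34 and CD41 the step's genes were not spread alike, with 1 array a fraction. HAND1 stood at 13.48 in CD34-CD41-, 13.27 in CD34loCD41-, 10.53 in CD34hiCD41- and 10.26 in CD34loCD41lo cells. FOXA2 was at 11.46, 9.90, 5.46 and 5.80 in the same order and KRT19 at 12.76, 11.91, 8.47 and 8.22, so that these 3 genes were all higher in CD34-CD41- and CD34loCD41- cells than in the other fractions. GYPB was instead highest in CD34loCD41lo cells, with 9.07, 11.79, 8.98 and 12.97 in that order, and GYPE with 10.38, 12.48, 10.07 and 13.51. CXCR4 and HLX had their highest levels in CD34hiCD41- cells (10.50 and 9.13). SNAI2 (9.23, 9.30, 8.88 and 8.31) and CDH11 (10.91, 11.23, 10.31 and 10.54) differed by less than 2-fold between any 2 fractions.

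Probes of a gene share the RNA and the array and are not replicates, but they can disagree. Among higher genes, 104 had another detected probe, and 124 of those 130 probes differed in the same direction, 65 of them by at least 2-fold. Among lower genes it was 79 genes and 89 of 94 probes, 44 of them by at least 2-fold, and 1 probe differed at least 2-fold the other way. The further probes of MYL4, BMPER, CFC1, LFNG, LUM, MEIS2, HEY1, MT1H, PDGFA and POU5F1 were detected on neither day, so each of these differences rests on 1 probe. Among 10798 detected protein-coding genes in genome order, 48 pairs of neighbours passed in the same direction, 28 higher and 20 lower. How many such pairs a shuffled gene order would give was not worked out. Besides GYPE and GYPB the pairs included IRX3 (12.88 against 11.16) and IRX5 (7.88 against 6.30), homeobox genes on chromosome 16, and HOXB5 and HOXB6. The lower pairs included the metallothioneins, and there and in GYPE and GYPB the probes may share signal. Of the motifs searched besides those above, the T-box core GGTGTGA stood in 4.29% of windows of higher and 2.48% of lower genes, against 4.2% of all. TGACAG, bound by MEIS and TGIF proteins, stood in 19.5% and 17.8%, against 18.6% of all.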

How the data were processed

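RNA from 13 samples was measured on Illumina BeadChips, 1 array a sample. The authors deposited probe intensities whose lowest value was -28.8, which implies a background subtraction, and which differ in distribution between arrays. Per the file headers each intensity has a detection value, a fraction, and the detection p was taken as 1 minus it. The log2 values deposited by the authors in a normalized matrix served as an alternative. GenomeStudio 2010.2 and lumi are named, without a role, per the submitters' processing notes.

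Columns were checked by rank correlation with the matrix, at least 0.999995 for the same sample and at most 0.904 for another. Intensities were normalized over 13 arrays by neqc (R 4.3.3, limma 3.58.1, offset 16). The brightest probe was kept per gene among probes detected on 1 day or more, giving 17657 features, 1164 of them unnamed probes. Of 47231 probes 1 was dropped. Symbols were current for 27035 probes, updated through RefSeq for 4649, unmatched for 12276 and absent for 3270. Probes detected per array numbered 16723 on day 3 and 16135 on day 2, within 15134 to 17833 over the course, and per the labels both arrays lay on the same chip. The number of arrays limits the precision.

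No test was run, since each day had 1 array. The members and the 26 gene lists were chosen with earlier results of these data known, and the metallothionein list and all motifs other than the T-box, TGACAG and longer GATA ones after the values were seen. Named genes are the 15 largest differences in each direction, 3 markers, and from each list up to 4 members past the rule in each direction and up to 2 of its first members that did not pass. Members named beyond these were picked after their values were seen. Promoter windows are those of RefSeq (GRCh38.p14), found for 505 of the 744 genes. Alternatives covered background correction, the authors' values, the arrays normalized together, the offset, the detection rule, the probe rule and the fold. A gene is not reported here and was left out of its list.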

Additional observations from a re-analysis of the deposited data

How the results depend on the processing

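The counts of 435 higher and 309 lower genes moved with the processing. With the authors' deposited values 686 genes were higher and 554 lower, and without background correction 601 and 484. With an offset of 50, 301 were higher and 181 lower. Other normalizations, detection rules and probe rules gave 340 to 629 higher and 253 to 456 lower genes. At 4-fold the counts were 90 and 29, and at 1.5-fold 1216 and 1131. Under all 10 settings at the 2-fold threshold, the one used included, 228 of the 435 higher (52.4%) and 156 of the 309 lower genes (50.5%) passed. Of 109 named genes past the fold, 22 were not detected on both arrays and so have no value under the setting that asks for it, and 76 were detected on both and passed under all 9 other settings. Counting only the settings that gave a gene a value, 95 passed under each, and the 14 that did not were LUM, JAG1, DNMT3L, LFNG, EPOR, MEIS2, S100A4, CYP26A1, GSC, FGF8, CLDN10, FOS, ID1 and EPCAM. The cause was not tested. None of the 109 changed direction under the settings that gave it a value. Levels near the detection floors of 5.44 and 5.53 limit the folds, which are lower bounds there. No paired analysis was possible because the labels give no replicate numbers and each day has 1 array.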
